A study of Mus musculus with 15 samples.

Results

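The cluster comprised the miRNAs of the imprinted Dlk1-Dio3 locus on mouse chromosome 12, chosen by miRNA number from a list of 47 numbers. Rows for 30 of these numbers were present, which gave 66 miRNAs (both arms, 5p and 3p, of 33 precursors) among 1836 miRNAs of 918 precursors in all. The remaining 17 numbers, mir-127, mir-379, mir-410 and mir-433 among them, were not analysed here. Small RNA libraries came from the left ventricle (LV) of 15 mice, 5 per group, with 1 library per mouse. The wild type (wt) mice and the AGAT-/- mice were untreated littermates on a C57BL/6J background. The AGAT-/-hArg mice carried the same knockout and received homoarginine for 4 weeks from osmotic mini pumps. AGAT, short for arginine:glycine amidinotransferase and encoded by Gatm, synthesizes homoarginine as well as the creatine precursor guanidinoacetate, and is missing in AGAT-/- mice. Age and sex of the mice were not given in the sources used here, and miRNA counts cannot show the loss of Gatm. All AGAT-/-hArg libraries were sequenced on lane 2 and all others on lane 8, and an effect of the lane cannot be told apart from one of supplementation.

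At the Dlk1-Dio3 locus, the protein-coding genes Dlk1, Rtl1 and Dio3 are expressed from the paternally inherited chromosome. The long noncoding RNAs Meg3, Rian and Mirg and the miRNAs between and within them are expressed from the maternally inherited one, and are thought to be processed from long transcripts that run in the same direction. The cluster is known for high levels in embryonic tissues and in the adult brain. Within the locus, a Meg3-proximal group lies in or near Meg3, Rian and the antisense strand of Rtl1, whose transcript is fully complementary to mir-136 and mir-434. A second group, from mir-379 to mir-410, lies farther downstream and ends inside Mirg.

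The 33 precursors were placed by name on GRCm38 (GENCODE M21 annotation), all on chromosome 12 between 109563692 and 109743368, a span of 179.7 kb. On the plus strand lay 32 of them, and mir-299b alone lay on the minus strand. Precursor mir-770 lay in an exon of Meg3, mir-136 and mir-434 lay opposite the Rtl1 exon, mir-341 and mir-370 in introns of Rian, and 6 in Mirg (mir-134, mir-409, mir-412, mir-485, mir-541 and mir-668). The other 22 lay in no other annotated gene. The Meg3-proximal group held 10 precursors and 20 miRNAs, and the mir-379 to mir-410 group held 23 precursors and 46 miRNAs.

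The mature sequences of the miRNAs on which the results rest are printed 5′ to 3′ with the seed, bases 2 to 8, in capitals (RefSeq, GRCm38.p6). The 4 most abundant members come first, followed by those with the lowest p in a comparison.
mir-434-3p: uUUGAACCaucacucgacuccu
mir-434-5p: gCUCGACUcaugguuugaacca
mir-541-5p: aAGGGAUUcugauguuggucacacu
mir-300-3p: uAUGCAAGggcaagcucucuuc
mir-666-3p: gGCUGCAGcgugaucgccugcu
mir-668-3p: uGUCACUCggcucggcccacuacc
mir-337-5p: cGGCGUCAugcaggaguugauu
mir-376b-3p: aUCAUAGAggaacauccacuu

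Since mir-434 gave the most reads of all precursors of the cluster, its hairpin is shown whole (chr12:109594506-109594599, plus strand, 94 bases), with both mature arms in capitals, the 5p arm first.
Mir434: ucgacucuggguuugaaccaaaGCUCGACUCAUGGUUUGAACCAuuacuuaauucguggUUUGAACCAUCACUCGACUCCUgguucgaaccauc

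Of the 66 miRNAs, 63 had a mature sequence in this table, and a shared seed occurred in 2 pairs only, mir-299a-3p with mir-299b-3p and mir-376b-5p with mir-376c-5p. Some members are near copies of each other, and how reads that match more than 1 miRNA were counted is not given in the sources used here. The following 3 pairs show how close they are.
mir-300-3p: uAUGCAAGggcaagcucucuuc
mir-381-3p: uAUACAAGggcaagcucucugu
mir-376b-5p: gUGGAUAUuccuucuaugguua
mir-376c-5p: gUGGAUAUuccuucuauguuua
mir-299a-3p: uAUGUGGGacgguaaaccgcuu
mir-299b-3p: uAUGUGGGacgguaaacc
Counted from 1 at the 5′ end, mir-300-3p differs from mir-381-3p by G4A, U21G and C22U, the first of which lies in the seed, and mir-376b-5p differs from mir-376c-5p by G19U. In each pair, nearly all reads were assigned to the first member. mir-300-3p had 5240 reads and mir-381-3p had 0, mir-376b-5p had 921 and mir-376c-5p had 6, and mir-299a-3p had 484 and mir-299b-3p, from the opposite strand, had 1. The split within these pairs is therefore uncertain.

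Over the 15 libraries, 44667 of 6817774 reads (0.655%) were assigned to the cluster. Libraries held between 365634 and 570492 reads. Levels are given as CPM (counts scaled to a common library size, with TMM factors), in which 3 reads correspond to between 4.93 and 8.20 CPM depending on the library, a floor that covers counting error only. Of the 66 members, 32 had more than 10 reads in all, 20 had between 1 and 10, and 14 were listed at 0 in all 15 libraries. A listed 0 does not show absence, as the 3p arms of mir-1a and mir-133a, for which heart muscle is known, were listed at 0 as well. Other rows of the heart muscle miRNAs mir-1a, mir-133a, mir-208a, mir-208b and mir-499 (8 of 14) had reads, with a summed level between 1795 and 2495 CPM per mouse. Of the neuronal miRNAs, rows were found for mir-128 only. Its 3p arms were listed at 0, and its summed level was between 35.03 and 79.6 CPM in wt, 34.7 and 62.7 in AGAT-/- and 58.8 and 74.4 in AGAT-/-hArg mice. The part of neurons in the cluster's reads was not tested. In this bulk tissue, fewer cells of a type and less RNA per cell cannot be told apart.

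Mir-434-3p, the 3p arm of a precursor antisense to Rtl1, was the most abundant member, with 18873 reads (42.3% of the cluster's reads) and rank 19 among the 1164 miRNAs with reads. Its level was 2746 ± 447 CPM (mean ± SD, n = 15), above that of mir-541-5p in 15 of 15 libraries. Next came mir-541-5p, from an intron of Mirg (6086 reads, 13.6%), mir-434-5p (5750 reads, 12.9%) and mir-300-3p (5240 reads, 11.7%), and the 4 together made up 80.5% of the cluster's reads. The order among the last 3 was not fixed: mir-541-5p was above mir-434-5p in 12 of 15 libraries, and mir-434-5p was above mir-300-3p in 13 of 15. Below these, levels dropped to 167 ± 34.9 CPM for mir-673-5p and 154.1 ± 29.4 CPM for mir-337-5p, which was below mir-673-5p in 10 of 15 libraries. Reads of different miRNAs also depend on how well adapters ligate to each sequence, so the order of reads need not be the order of molecules.

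**Figure D1:**
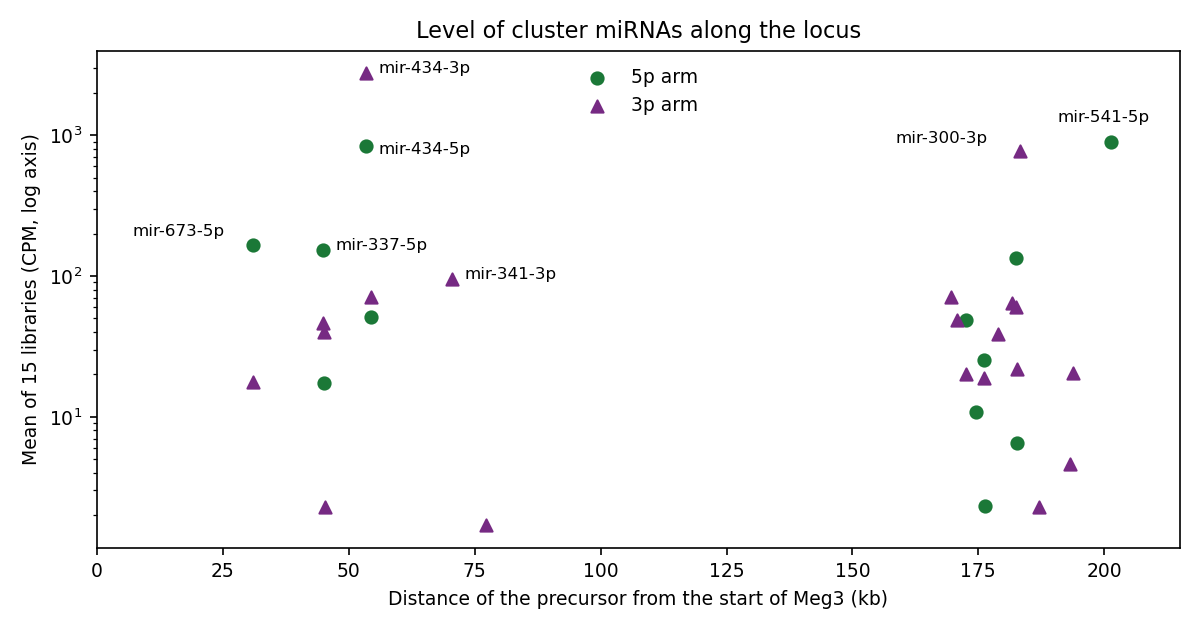
Mean level over 15 libraries (CPM, log axis) of the 32 cluster miRNAs with more than 10 reads, against the distance of their precursor from the start of Meg3 (kb), with circles for 5p and triangles for 3p arms. The precursors fall in 2 stretches along the locus, and mir-434-3p stands above the other members, followed by mir-541-5p, mir-434-5p and mir-300-3p.

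Both stretches of the locus were represented. The Meg3-proximal group gave 65.3% of the cluster's reads, most of them from mir-434, and the mir-379 to mir-410 group gave 34.7%. In the Meg3-proximal group, mir-673-5p (1151 reads), mir-337-5p (1055), mir-341-3p (643), mir-136-3p (481), mir-136-5p (343), mir-337-3p (314) and mir-540-3p (272) followed mir-434. Beyond mir-541-5p and mir-300-3p, the downstream group was led by mir-376b-5p (921), mir-299a-3p (484), mir-376c-3p (442), mir-376b-3p (414), mir-380-3p (339) and mir-329-5p (333). The mir-376 precursors are known as targets of A-to-I RNA editing, which these counts do not show. Other miRNAs annotated to the locus outside the list, 12 in number, had few reads, with mir-1193-3p (38 reads) and mir-1247-3p (13) the only ones above 10. The paper lists the other arm, mir-1247-5p, as significantly lower in AGAT-/- than in wt mice. In the counts used here that arm was listed at 0 in all libraries, so the published change could not be examined.

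Most precursors gave reads mainly from 1 arm. Of the 33, 22 had more reads on the 3p arm, 10 had more on the 5p arm, and both arms of mir-409 were listed at 0. More than 10 reads on each arm were found for 9 precursors, and on 1 arm only for 14. In the other 10, mir-409 among them, neither arm had more than 10 reads, so their larger arm rests on few reads. As stated above, an arm listed at 0 need not be absent. For mir-541 the arms held 6086 (5p) and 3 (3p) reads, for mir-300 they held 3 and 5240, and for mir-341 they held 1 and 643. The 5p arm of mir-434 took between 19.96% and 28.5% of the reads of its precursor, and the 3p arm was the larger in 15 of 15 libraries. For mir-673, mir-337, mir-329 and mir-376b, the 5p arm was the larger in 15 of 15 libraries. The split of reads between mir-376b-5p and mir-376c-5p is uncertain, as given above, and so is the larger arm of mir-376b. By contrast, mir-666 had more 5p reads in 11 libraries and more 3p reads in 4, and mir-136 had more 5p reads in 2 and more 3p reads in 13.

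AGAT-/- mice were compared with wt mice to see which members depend on AGAT. In these 10 libraries, 29 members had more than 10 reads and were tested. None passed an FDR of 0.05 (edgeR), where 12 of all 562 miRNAs tested (2.14%) did. With DESeq2 and with limma-voom the number of members past the FDR was 0 as well, though DESeq2 gave no FDR for 1 of the 29. Over all 562 miRNAs, DESeq2 called 14 and limma-voom 15. An unadjusted p below 0.05 was found for 4 of the 29 members with each of the 3 tools, where edgeR found it for 10.7% of all miRNAs tested. No member had groups that did not overlap, compared with 3.38% of all miRNAs tested. The 4 members were mir-666-3p, mir-668-3p, mir-434-3p and mir-337-5p, each with a lower mean in AGAT-/- mice, and their values are as follows.

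Mir-666-3p, from the downstream group, was at 35.03, 35.1, 27.2, 20.3 and 12.3 CPM in wt mice 1 to 5. In AGAT-/- mice 6 to 10 it was at 4.82, 13.9, 8.20, 14.6 and 13.9 CPM. Thus 4 wt mice lay above all AGAT-/- mice, and wt mouse 5 lay among them. The log2 fold change was -1.20 (SE 0.36, 95% interval -1.95 to -0.44, FDR = 0.106), and the levels rest on few reads, 5 to 16 in the wt and 2 to 8 in the AGAT-/- libraries. Its 5p arm, mir-666-5p, gave -0.02 (SE 0.31, FDR = 0.976). On the same scale, 2 reads in AGAT-/- mouse 6 lie under the floor of 3 reads.

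Mir-668-3p, whose precursor lies in an exon of Mirg, was at 28.5, 21.1, 33.5, 27.9 and 22.2 CPM in wt mice. AGAT-/- mice had 4.82, 17.4, 10.9, 22.9 and 11.6 CPM. The groups overlapped through AGAT-/- mouse 9, which lay above wt mice 2 and 5. The log2 fold change was -0.94 (SE 0.33, 95% interval -1.64 to -0.24, FDR = 0.232). With the animal number in the labels as a covariate, it was -1.56 (SE 0.50, FDR = 0.183). All AGAT-/- mice except mouse 6 had higher animal numbers than any wt mouse. The covariate thus largely follows genotype, and fits with it cannot tell them apart. AGAT-/- libraries held between 2 and 11 reads of mir-668-3p, with mouse 6 under the floor of 3 reads.

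For mir-434-3p, wt mice had 3552, 3179, 2699, 2810 and 2389 CPM. AGAT-/- mice had 2526, 2186, 2156, 2409 and 3000 CPM. Of the 5 AGAT-/- mice, 4 lay below 4 of the wt mice, while AGAT-/- mouse 10 was the third highest of the 10. Here counting error is small, with 789 reads or more in every library, and the log2 fold change was -0.27 (SE 0.11, 95% interval -0.49 to -0.04, FDR = 0.339). Its partner arm mir-434-5p had a log2 fold change of -0.07 (95% interval -0.26 to 0.13, FDR = 0.908). With the animal number as a covariate, mir-434-3p gave -0.21 (SE 0.16, FDR = 0.692).

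Mir-337-5p was at 205.8, 218, 178, 129 and 158 CPM in wt and at 147, 137, 139, 121 and 158 CPM in AGAT-/- mice. The groups overlapped, with the lowest wt mouse below 4 of the AGAT-/- mice. The log2 fold change was -0.36 (SE 0.15, 95% interval -0.68 to -0.04, FDR = 0.388). It was -0.20 (SE 0.21, FDR = 0.801) with the animal number as a covariate, which largely follows genotype, as stated above. With the fifth lowest p, mir-329-5p gave -0.39 (SE 0.22, FDR = 0.560).

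The other abundant members differed little between AGAT-/- and wt mice. Mir-541-5p was at 885, 1096, 842, 884 and 833 CPM in wt mice. In AGAT-/- mice it was at 966.5, 891, 806, 842 and 1049 CPM. Both groups covered nearly the same range, and the log2 fold change was -0.01 with a 95% interval from -0.23 to 0.21, which limits a change of this miRNA to a fold between 0.854 and 1.15. For mir-300-3p, wt mice had 821, 883, 676, 773 and 761.8 CPM, and AGAT-/- mice had 807, 582, 724, 702 and 927 CPM. AGAT-/- mice thus held both the highest and the lowest value, and the interval was from -0.33 to 0.16. Over the 20 members with a mean of at least 10 reads, log2 fold changes were between -0.39 and 0.27. Their 95% intervals reached between 0.20 and 0.65 to either side, and hold the spread between mice as well as counting error. Changes smaller than this reach could not be told from 0, and passing the FDR over all miRNAs tested requires larger ones.

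**Figure D2:**
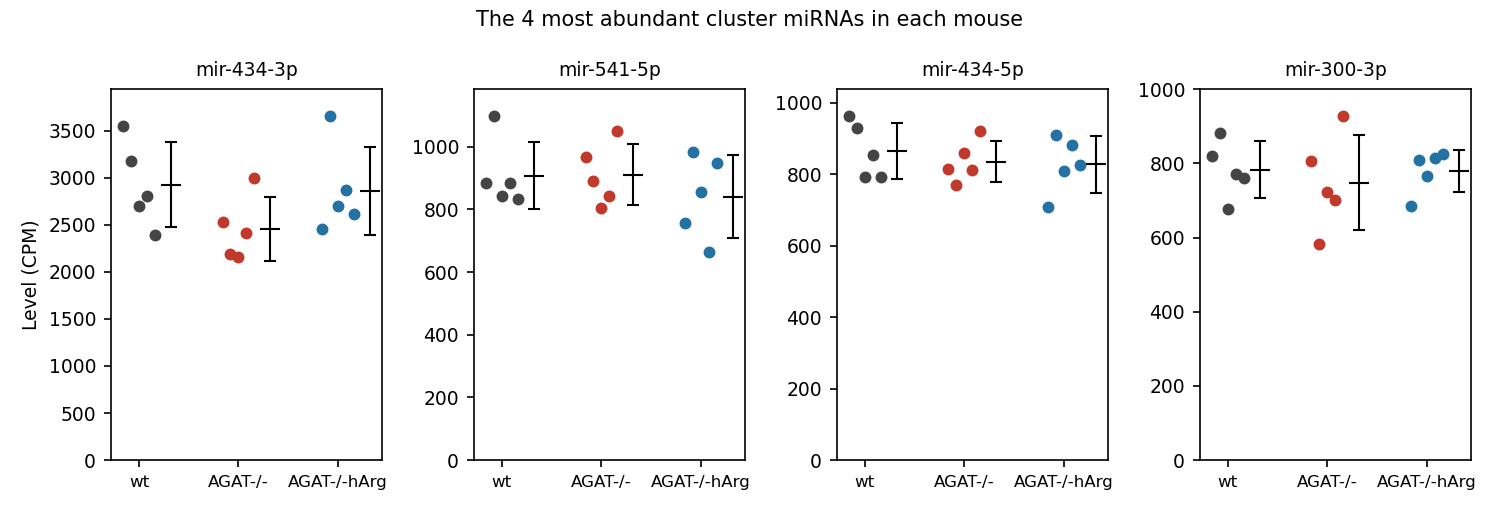
Level (CPM) of the 4 most abundant cluster miRNAs in each mouse (points, 5 per group), with mean and SD beside them. For mir-434-3p, AGAT-/- mice averaged 2455 CPM and wt mice 2926 CPM with overlapping points, and the groups covered similar ranges for the other 3 miRNAs.

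Across the tested members, 23 of 29 had a log2 fold change below 0 in AGAT-/- mice, where 53.4% of all miRNAs tested did. The median was -0.10, and over all 562 miRNAs it was -0.04. In the Meg3-proximal group 10 of 11 members were below 0 (median -0.08), and in the downstream group 13 of 18 (median -0.14). Members share a locus and, for both arms, a precursor, so these counts are a description of the cluster and not independent measurements. With each mouse left out in turn, the median was between -0.19 (without wt mouse 4) and -0.05 (without wt mouse 5).

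Homoarginine-supplemented AGAT-/-hArg mice were compared with AGAT-/- mice, on different lanes as stated. Of 30 members tested, none passed an FDR of 0.05 with edgeR, DESeq2 or limma-voom, where edgeR called 4 of all 580 miRNAs tested (0.69%). An unadjusted p below 0.05 was found for 2 members by edgeR (7.41% of all miRNAs tested), 1 by DESeq2 and 2 by limma-voom, and no member had groups that did not overlap (2.41% of all). This comparison shares the AGAT-/- mice with the one above, and opposite signs in both can come from the same AGAT-/- values.

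Both edgeR members with such a p had been named above. In AGAT-/-hArg mice 11 to 15, mir-434-3p was at 2459, 3650, 2700, 2870 and 2612 CPM. Mouse 12 stood highest of all 15 mice, and the other 4 lay within the range of the AGAT-/- mice. The log2 fold change was 0.23 (SE 0.10, 95% interval 0.02 to 0.44, FDR = 0.555). Without mouse 12 it was 0.11 (FDR = 0.946). Mir-666-3p was at 22.9, 16.4, 25.9, 12.8 and 17.9 CPM, with 4 of 5 mice above the AGAT-/- range and mouse 14 inside it. The log2 fold change was 0.75 (SE 0.35, 95% interval 0.02 to 1.48, FDR = 0.645).

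For mir-668-3p, AGAT-/-hArg mice had 16.6, 36.1, 9.42, 18.0 and 27.9 CPM. They spread more widely than either other group, and the log2 fold change against AGAT-/- mice was 0.68 (SE 0.39, FDR = 0.749). Mir-337-5p was at 141.5, 151, 146, 110 and 171 CPM, close to the AGAT-/- values, with a log2 fold change of 0.06 (95% interval -0.24 to 0.36, FDR = 0.970). Of the 30 members, 10 were below 0, where 48.3% of all miRNAs tested were, and the median was 0.07 (0.02 over all 580).

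In the comparison of AGAT-/-hArg with wt mice, which differ in genotype, supplementation and lane at once, 30 members were tested. None passed an FDR of 0.05 with edgeR, DESeq2 or limma-voom, where edgeR called 17 of all 569 miRNAs tested (2.99%), DESeq2 22 and limma-voom 18. DESeq2 gave no FDR for 6 of the 30 members, which therefore could not pass with it. An unadjusted p below 0.05 was found for 1 member by edgeR (12.5% of all miRNAs tested) and by DESeq2, and for 2 by limma-voom. Again no member had groups that did not overlap (3.87% of all). The member was mir-376b-3p. It was at 37.2, 79.6, 52.3, 38.0 and 51.8 CPM in wt mice and at 81.1, 72.3, 82.4, 66.7 and 59.8 CPM in AGAT-/-hArg mice. All AGAT-/-hArg mice lay above 4 of the wt mice, and wt mouse 2 lay among them. The log2 fold change was 0.48 (SE 0.21, 95% interval 0.03 to 0.93, FDR = 0.340).

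In AGAT-/- mice, mir-376b-3p was at 65.1, 43.4, 43.7, 56.3 and 76.5 CPM, overlapping both other groups. The 5p arm, mir-376b-5p, had a log2 fold change of 0.06 between AGAT-/-hArg and wt mice (95% interval -0.31 to 0.42). For mir-434-3p this comparison gave -0.03 (95% interval -0.27 to 0.21), for mir-434-5p -0.06 (95% interval -0.28 to 0.15), for mir-541-5p -0.11 (95% interval -0.35 to 0.14) and for mir-300-3p -0.01 (95% interval -0.21 to 0.20). Among members at lower levels, mir-376a-5p gave -0.90 (SE 0.49, FDR = 0.489) from between 1 and 6 reads per library, and mir-540-5p gave 0.60 (SE 0.31, FDR = 0.464). Of the 30 members, 18 were below 0 (48.9% of all miRNAs tested were), and the median was -0.05, beside 0.02 over all 569.

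**Figure D3:**
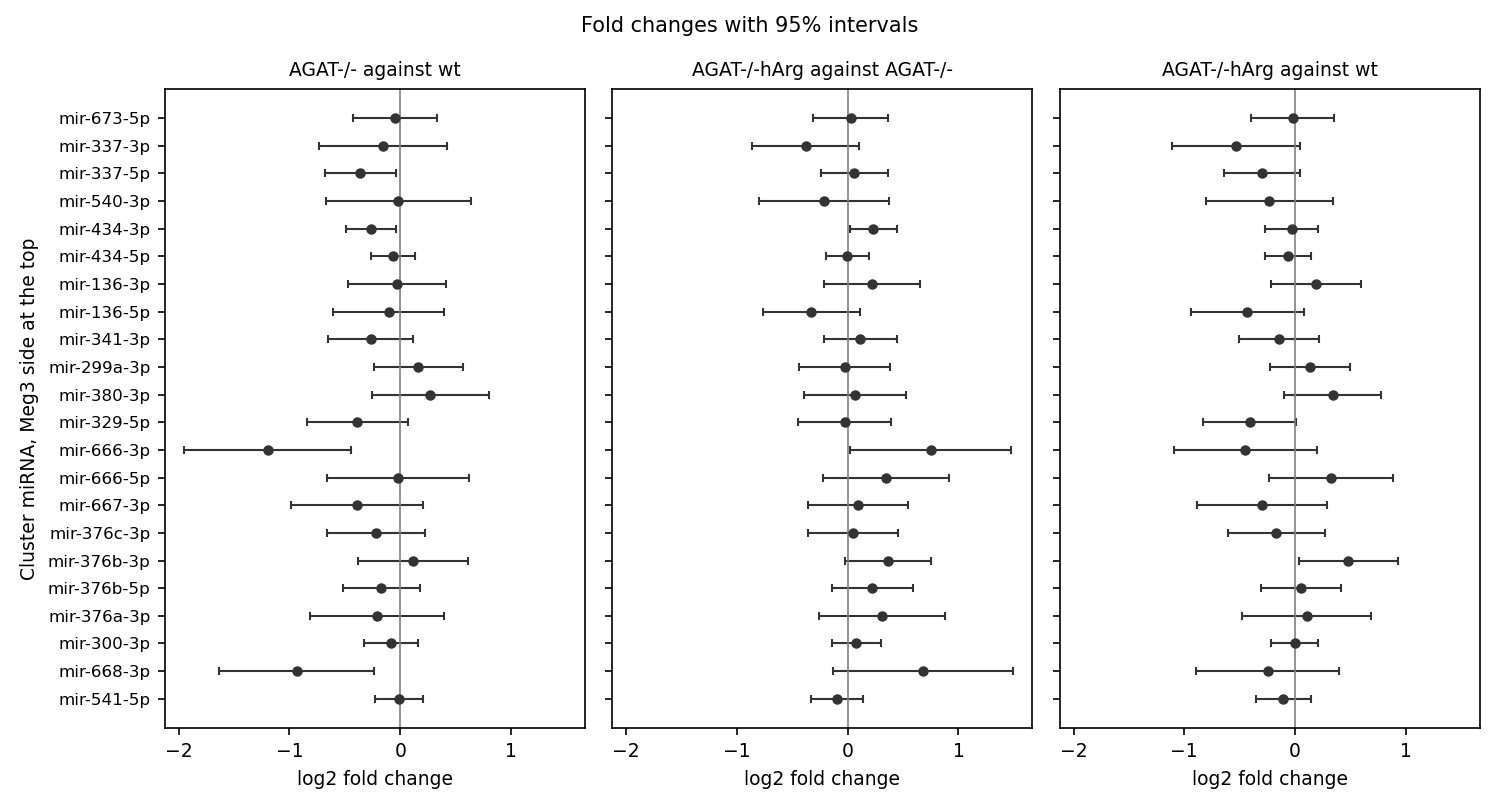
Log2 fold change (point) with 95% interval (line) in the 3 comparisons, for the 20 cluster miRNAs with a mean of at least 10 reads and for mir-666-3p and mir-668-3p, ordered along the locus from the Meg3 side. In AGAT-/- against wt mice, the intervals of mir-666-3p, mir-668-3p, mir-434-3p and mir-337-5p lie below 0, and none of these passed the FDR.

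**Figure D4:**
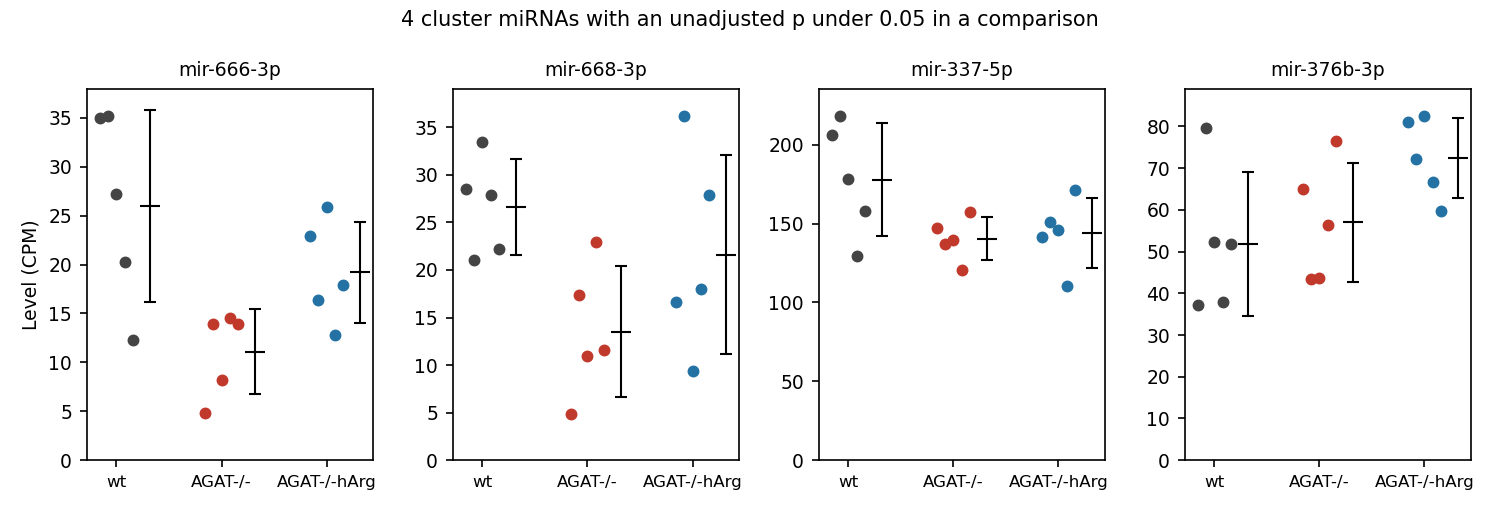
Level (CPM) in each mouse (points, 5 per group) of 4 cluster miRNAs with an unadjusted p below 0.05 in a comparison, with mean and SD beside them. The groups overlap in each panel, and mir-666-3p averaged 26.0 CPM in wt, 11.1 in AGAT-/- and 19.2 in AGAT-/-hArg mice.

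Arm use was compared as well, for the 9 precursors with more than 10 reads on each arm, a measure added after the values were seen. In exact two-sided permutation tests over mice (27 tests, smallest p possible 0.0079), 5 had an unadjusted p below 0.05, and none passed after Benjamini-Hochberg adjustment (lowest 0.171). How often such a p occurs among precursors outside the cluster was not computed, so this count has no background beside it. The lowest p, 0.0079 (exact permutation test, 0.171 adjusted), was that of mir-376a in AGAT-/-hArg against wt mice. Its 5p arm took 14.4% ± 6.68 of reads in AGAT-/-hArg and 28.5% ± 8.24 in wt mice, from between 1 and 6 reads of this arm per library. In the same comparison, the 5p arm of mir-540 took 36.6% ± 3.73 and 25.5% ± 9.56 (exact permutation p = 0.032, 0.171 adjusted). For mir-434, the 5p arm took 23.0% ± 1.30 of reads in wt, 25.5% ± 1.91 in AGAT-/- and 22.6% ± 1.59 in AGAT-/-hArg mice (mean ± SD, n = 5). The exact permutation p was 0.032 for AGAT-/- against wt and 0.024 for AGAT-/-hArg against AGAT-/- mice (both 0.171 adjusted), and both tests share the AGAT-/- mice. For mir-666, the 5p arm took 48.0% ± 12.9 in wt, 68.1% ± 7.49 in AGAT-/- and 60.8% ± 5.79 in AGAT-/-hArg mice. AGAT-/- against wt mice gave an exact permutation p of 0.024 (0.171 adjusted). The shares of mir-434 and mir-666 are built from the same reads as the fold changes of their arms above, and are not independent of them. For mir-673, the shares were 90.5% ± 2.26, 90.5% ± 3.64 and 89.9% ± 1.29.

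As a whole, the cluster took 0.801%, 0.736%, 0.612%, 0.571% and 0.587% of the reads of wt mice 1 to 5. AGAT-/- mice 6 to 10 had 0.611%, 0.569%, 0.565%, 0.594% and 0.704%, and AGAT-/-hArg mice 11 to 15 had 0.601%, 0.824%, 0.688%, 0.647% and 0.680%. All 3 groups overlapped, with 1 or 2 mice in each standing above the others. The summed level was 6815 ± 832 CPM in wt, 6165 ± 759 in AGAT-/- and 6579 ± 699 in AGAT-/-hArg mice (mean ± SD, n = 5). Without mir-434-3p it was 3889 ± 421, 3710 ± 422 and 3721 ± 279 CPM. Mir-434-3p took between 39.7% and 45.5% of the cluster's reads in wt, between 38.2% and 40.5% in AGAT-/- and between 40.1% and 47.2% in AGAT-/-hArg mice.

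Within the groups, members tended to be high in the same mice. Of the 20 members with a mean of at least 10 reads, 18 were above the median of their group in AGAT-/- mouse 10, where 51.1% of all 229 miRNAs at that level were. The number was 15 in wt mouse 1 (39.7% of all), 14 in wt mouse 2 (42.4%) and 12 in AGAT-/-hArg mouse 12 (42.8%). It was lowest in wt mouse 4 and AGAT-/- mouse 7, with 2 members each (43.2% and 34.5% of all), followed by wt mouse 3 with 3 (36.7%). AGAT-/- mouse 10 also held the highest value of its group for 14 of the 20 members, and for 31.4% of all 229 miRNAs. These counts are given without a test, since members are not independent of each other.

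**Figure D5:**
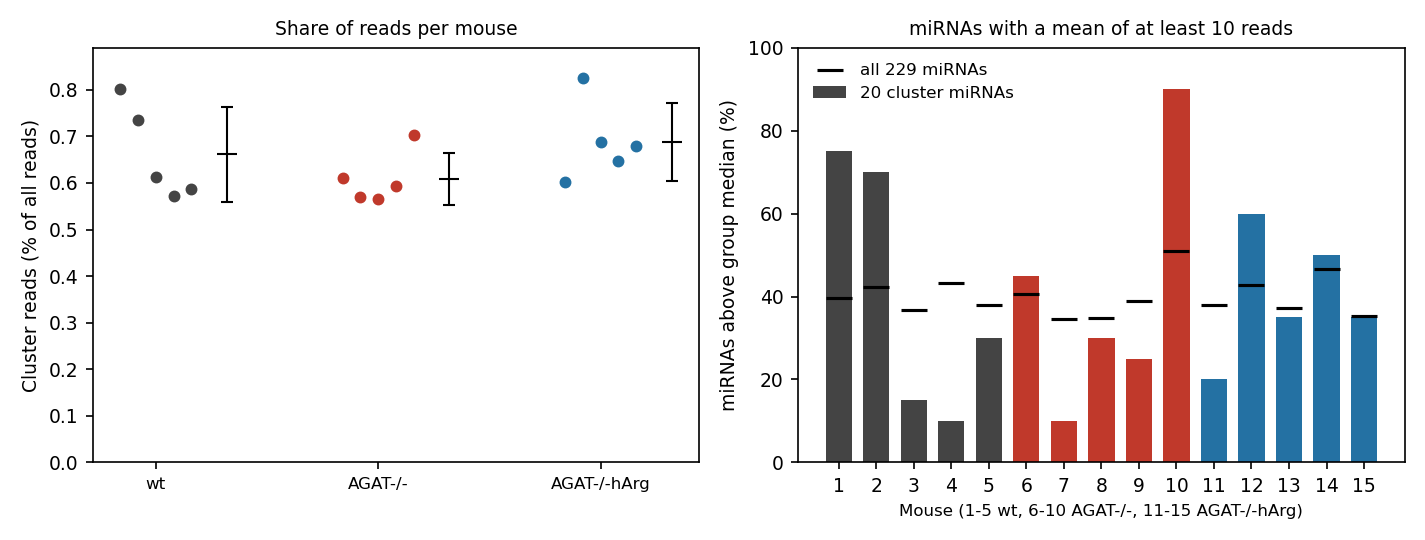
Left, share of reads assigned to the cluster in each mouse (%, points, 5 per group) with mean and SD. Right, percent of the 20 cluster miRNAs with a mean of at least 10 reads that were above their group's median in each mouse (bars), with the same percent over all 229 miRNAs at that level (black lines): mice 1, 2, 10 and 12 have bars of 60% or more, and mice 4 and 7 have bars of 10%.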

How the data were processed

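MiRNA sequencing of LV tissue from 5 wt, 5 AGAT-/- and 5 AGAT-/-hArg mice was analysed. The authors prepared TruSeq small RNA libraries, used the CLC Genomics Workbench to align reads with mouse miRNAs from miRBase, and deposited raw counts of reads per mature miRNA as whole numbers. The submitters' processing notes name GRCm38. The miRBase release and the handling of reads with several matches are not given in the sources used here.

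Groups were taken from the labels. Each pair of groups was compared with edgeR 4.0.16 (R 4.3.3; TMM, glmQLFit, glmQLFTest) testing each miRNA whose sum over the 10 libraries was above 10 reads, with Benjamini-Hochberg FDR over all miRNAs tested and a threshold of 0.05. SEs are the absolute log2 fold change divided by the square root of F, and 95% intervals use the fit's degrees of freedom. Fold changes are the first group named against the second. CPM used TMM over all 15 libraries. Libraries held 365634 to 570492 reads. Libraries of 1 group differed by more than counting error (30 pairs, chi-square divided by its degrees of freedom from 2.53 to 16.8), so each counted as 1 replicate, and each label names its own mouse. The fits were first tested on data simulated for AGAT-/- against wt mice only, with 200 miRNAs changed 2-fold. There edgeR recovered 48.5% of the changes at the FDR, and 90.1% of those with a mean above 10 reads. Smaller changes were not simulated.

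Alternatives were DESeq2 1.42.0, limma-voom (limma 3.58.1), DESeq2 size factors, total counts, other count filters, all 15 libraries in 1 fit, the 3 most abundant miRNAs left out, the animal number as covariate for AGAT-/- against wt mice, and each mouse left out in turn. What the animal number stands for is not given in the sources used here. It largely follows genotype, so the fit with it is not an independent adjustment. Named members are the 20 with most reads, any past the FDR or with groups that do not overlap, and the 5 with the lowest p per comparison; other members are named for their sequence, position or read count after their values were seen. The members and lists were chosen with earlier results of these data known. Sequences are from RefSeq (GRCm38.p6) and positions from GENCODE M21, with names matched for 33 of 33 precursors. Arm shares used Python 3.11.15 with scipy 1.17.1.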

Additional observations from a re-analysis of the deposited data

Results flagged for a closer look

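In 3 of 75 sets of 5 mice (24 named members and the summed level of the cluster, in 3 groups), 1 mouse stood apart from the other 4 by Dixon's criterion (ratio above 0.71), which chance exceeds in about 1 of 20 sets. Mir-541-5p was at 1096 CPM in wt mouse 2, with the other wt mice between 833 and 885 CPM. Mir-329-5p was at 28.9 CPM in AGAT-/- mouse 6, with the other AGAT-/- mice between 46.4 and 52.1 CPM. Mir-341-3p was at 110 CPM in AGAT-/-hArg mouse 14, with the others between 85.4 and 91.7 CPM.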

How the results depend on the processing

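No member passed the FDR in any of the 58 alternative fits over the 3 comparisons, and the lowest FDR of a named member was 0.059 (mir-666-3p in AGAT-/- against wt mice, without wt mouse 5). For this miRNA the log2 fold change was between -1.32 and -0.97 and the FDR between 0.059 and 0.429 over 18 alternatives. In the same comparison it was between -1.56 and -0.68 for mir-668-3p and between -0.45 and -0.20 for mir-337-5p, and in AGAT-/-hArg against AGAT-/- mice it was between 0.11 and 0.30 for mir-434-3p. Of 1356 alternative log2 fold changes of the 24 named members, 106 had the sign opposite to that reported, none of them past the FDR. The median of the tested members was between -0.19 and -0.05 with each mouse left out and between -0.20 and -0.04 under the other alternatives in AGAT-/- against wt mice, and between 0.01 and 0.13 and between 0.05 and 0.14 in AGAT-/-hArg against AGAT-/- mice. In AGAT-/-hArg against wt mice it was between -0.12 and 0.06 with each mouse left out and between -0.11 and 0.06 otherwise. It was above 0 only without wt mouse 1 (0.06) and with total counts (0.06), where the median of all miRNAs moved from 0.02 to 0.12. Members with groups that do not overlap numbered 0 under the 3 other scalings and 0 or 1 with a mouse left out, in each comparison. Leaving out the 3 most abundant miRNAs shrinks the total, so the summed level became 24856 CPM in wt, 22470 in AGAT-/- and 24081 in AGAT-/-hArg mice, and the share of reads 2.46%, 2.22% and 2.48%. With each mouse left out, the summed level was between 6566 and 7015 CPM in wt, 5854 and 6329 in AGAT-/- and 6293 and 6770 in AGAT-/-hArg mice, and the share between 0.627% and 0.684%, 0.585% and 0.620%, and 0.654% and 0.7098%. The paper describes all analysed animals as littermates, but the labels do not name the litter of each mouse, so no analysis paired by litter was possible. Depth limits the members with few reads. Over the 20 with a mean of at least 10 reads, 95% intervals reached between 0.20 and 0.65 (log2) to either side in AGAT-/- against wt mice. These intervals hold the spread between mice as well as counting error.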
